A study of Mus musculus with 48 samples.

Results

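The uptake, synthesis and breakdown of GABA in astrocytes were followed through 7 genes, found by symbol among the 24421 gene symbols of each deposited table. They were Slc6a11 and Slc6a13 (uptake), Gad1 and Gad2 (synthesis), Abat and Aldh5a1 (breakdown) and Maob (an enzyme of a second route to GABA). The series held 48 RNA-seq libraries of mouse astrocytes, in 15 groups. Cortex, hippocampus and olfactory bulb were sampled on postnatal day 1 (P1), day 7 (P7) and day 14 (P14), with 3 libraries per group and 4 at cortex P14; the labels of these libraries give no genotype or treatment. At P28, libraries labelled Gabbr1 control were compared with libraries labelled Gabbr1 cKO (a conditional knockout of the GABA-B receptor subunit gene Gabbr1), 4 against 4 in cortex, 2 against 4 in hippocampus and 3 against 3 in olfactory bulb. Tamoxifen is named as treatment, for control and cKO alike, in every P28 hippocampus and olfactory bulb library and in cortex control replicates 3 and 4 and cKO replicate 4; the other 5 cortex P28 libraries name none. The Cre driver and the way astrocytes were separated from other cells are not given in the sources used here. No label names an animal, so p-values measure the spread between these libraries, which may be technical.

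GABA is the main inhibitory transmitter of the brain, and astrocytes take it up beside synapses through sodium-coupled carriers. Slc6a11 encodes GAT-3, the carrier best known from astrocytes, and Slc6a13 encodes GAT-2, best known from the meninges and the liver. Inside the cell, GABA transaminase (Abat) turns GABA into succinic semialdehyde and succinic semialdehyde dehydrogenase (Aldh5a1) oxidises that to succinate, a fuel of the citric acid cycle. GABA is made from glutamate by the glutamic acid decarboxylases GAD67 (Gad1) and GAD65 (Gad2), which are classical markers of inhibitory neurons. Monoamine oxidase B (Maob) takes part in a route in which astrocytes make GABA from putrescine.

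Promoter sequence is shown for a pair of genes that rose with age (Slc6a11 and Aldh5a1) and for both decarboxylases, which fell, so that the regions before their RefSeq start sites can be set side by side. Of the 7 genes, 5 had an entry in the RefSeq promoter table of build GRCm38.p6, with 7 start sites between them. Each line holds the 250 bases before the start site given by RefSeq, 5' to 3' on the gene's own strand. The windows of Slc6a11 and Aldh5a1 end where the loci printed below begin; the RefSeq starts of Gad1 and Gad2 lie inside their annotated loci, so the Gad1 window and the later part of the Gad2 window are within the locus. Capitals mark 3 of the 6 motifs searched on both strands, namely the NFI core TTGGC, the TATA box TATAAA and the nuclear receptor core AAGGTCA, or the reverse complement of each.

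Slc6a11, chr6:114130991-114131240, plus strand: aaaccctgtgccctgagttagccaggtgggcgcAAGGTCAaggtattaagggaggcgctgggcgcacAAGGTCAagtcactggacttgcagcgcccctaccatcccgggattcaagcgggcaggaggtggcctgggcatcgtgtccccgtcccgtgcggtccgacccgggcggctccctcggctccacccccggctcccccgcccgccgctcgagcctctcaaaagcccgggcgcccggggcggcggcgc

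Aldh5a1, chr13:24937662-24937911, minus strand: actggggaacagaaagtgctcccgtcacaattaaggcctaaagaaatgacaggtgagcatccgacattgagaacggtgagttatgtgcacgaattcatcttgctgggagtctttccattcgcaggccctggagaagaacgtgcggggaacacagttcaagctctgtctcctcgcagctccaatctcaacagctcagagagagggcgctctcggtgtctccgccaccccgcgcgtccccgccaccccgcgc

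Gad1, chr2:70561879-70562128, plus strand: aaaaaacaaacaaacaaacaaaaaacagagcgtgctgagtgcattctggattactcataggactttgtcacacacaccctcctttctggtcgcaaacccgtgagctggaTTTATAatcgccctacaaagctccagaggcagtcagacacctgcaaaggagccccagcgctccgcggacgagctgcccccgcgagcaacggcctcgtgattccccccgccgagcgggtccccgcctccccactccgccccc

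Gad2, chr2:22622077-22622326, plus strand: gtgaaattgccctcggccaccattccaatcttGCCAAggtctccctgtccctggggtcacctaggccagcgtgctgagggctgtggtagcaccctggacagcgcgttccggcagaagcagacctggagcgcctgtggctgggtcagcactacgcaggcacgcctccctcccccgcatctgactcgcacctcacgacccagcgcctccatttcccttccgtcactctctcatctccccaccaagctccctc

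The Slc6a11 window held AAGGTCA at 2 places, starting 217 and 183 bases before the RefSeq start; 4.08% of all 32851 windows of the same length held this motif or its reverse complement. It also held the GC box GGGCGG or its reverse complement at 3 places (32.7% of all windows hold one), and its GC content was 71.2% against a median of 52.4%. Gad1 had the reverse complement of the TATA box 141 bases before its RefSeq start (12.4% of windows) and a GC box 8 bases before it. Gad2 had 1 NFI core, 218 bases before its RefSeq start (41.5% of windows). None of the 6 motifs was found in the Aldh5a1 window. The remaining motifs, the SOX core AACAAT (9.42% of windows) and the homeodomain core TAATTA (4.84%), were in no window of these genes. The motifs were chosen with the sequences in view, and no match of one overlapped a match of another in these windows. A match describes letters and not binding.

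The labelled cell type was checked against 10 astrocyte markers, none of which was at 0 in any group. Their summed normalized reads rose from 21090 to 27860 per library at cortex P1 to 495922 to 554224 at P14, mostly Slc1a2, and from 5048 to 7168 to 124173 to 141103 in olfactory bulb. Summed markers of all neurons went the other way, from 10156 to 13758 at cortex P1 to 1767 to 2105 at P14. In olfactory bulb the neuronal sums were 17073 to 21070 at P1, above the astrocyte sums, 11739 to 16899 at P7 and 4594 to 5606 at P14. Summed oligodendrocyte markers rose in cortex from a mean of 84.9 at P1 to 19792 at P14. In bulk libraries, fewer cells of a type and less RNA per cell cannot be told apart. Between 1773226 and 15008466 reads per library were assigned to genes. The ribosomal RNA gene Rn45s took 13.7% to 38.0% of them, apart from hippocampus P28 cKO replicate 2 (0.594%) and olfactory bulb P28 control replicate 2 (0.476%). Values below are deposited normalized reads, that is, gene reads divided by one scaling factor per library. Each region and the P28 part were scaled separately, so values of different tables are set side by side without a test.

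A set of 4 genes went up in every region between P1 and P14, both decarboxylases went down, and Slc6a13 stayed near the lower end of what could be measured. All 7 genes passed the filter (a mean of at least 10 normalized reads over the table) in the 3 developmental tables. Comparing P14 with P1, 4 of 7 rose in cortex, hippocampus and olfactory bulb alike (limma adjusted p under 0.05), where 24%, 21% and 24.8% of all tested genes rose. In the same comparisons 2, 3 and 2 of 7 fell, beside 40.3%, 28.5% and 31.4% of all genes. The median log2 fold change of the 7 was 1.53, 3.22 and 2.82, and that of all tested genes was -0.27, -0.29 and -0.24.

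**Figure D1:**
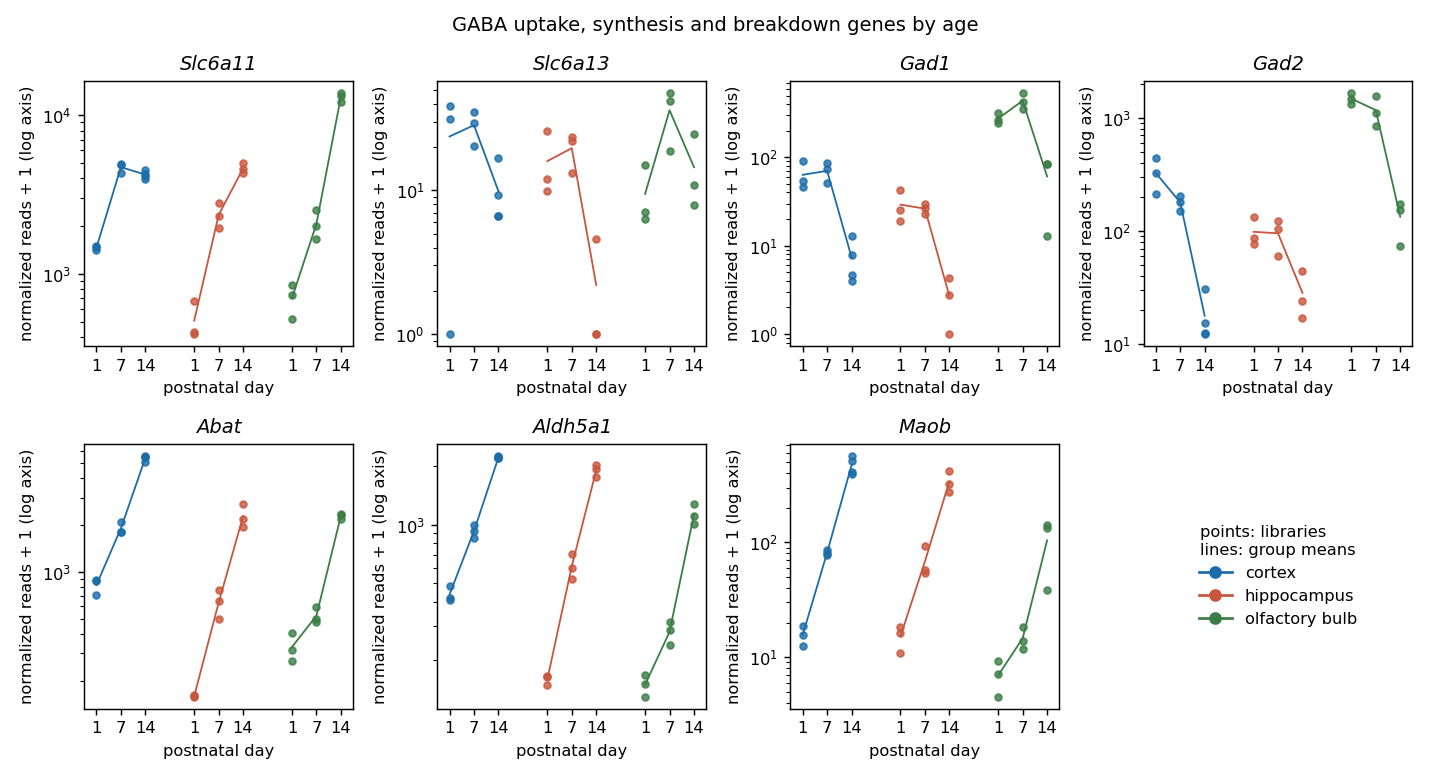
Normalized reads plus 1 (log axis) of each gene against postnatal day in the 3 regions; points are libraries and lines join group means. Slc6a11, Abat, Aldh5a1 and Maob climb in each region, with the P7 and P14 points of Slc6a11 overlapping in cortex, while Gad1 and Gad2 drop between P7 and P14.

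Split by interval, P7 against P1 gave rises in 4 of 7 genes for cortex and 4 of 7 for hippocampus, against 3 of 7 for olfactory bulb, where 15.6%, 11.2% and 7.59% of all genes rose. None of the 7 fell in that interval in any region by limma fitted to all ages, beside 18.1%, 6.92% and 2.98% of all genes. At an unadjusted p under 0.05 Gad2 was lower in cortex in that fit. By edgeR 4 of the 7 were called in each region, in either direction, beside 32.8%, 19.9% and 13.8% of all genes. Fitting only the ages compared called 5, 4 and 6 of the 7 in either direction, beside 38.3%, 37.2% and 31% of all genes. Gad2 in cortex was a fall among these. P14 against P7 gave 3, 4 and 4 rises (18.6%, 12.5% and 20.4% of all genes) and 2, 3 and 2 falls (31.3%, 17.7% and 26.6% of all genes).

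Slc6a11 (chr6:114131241-114249952, plus strand) rose between P1 and P7 in cortex with no called change after that, and in olfactory bulb gained most of its level after P7. In cortex its normalized reads were 1420, 1488 and 1472 at P1, 4877, 4915 and 4312 at P7, then 4145, 4260, 3968 and 4504 at P14. The P1 libraries lie well below all others, and the P7 and P14 groups overlap. The log2 fold change was 1.68 (SE 0.08, adjusted p = 2.59e-08) from P1 to P7 and -0.15 (SE 0.08, adjusted p = 0.117) from P7 to P14. That second value has its 95% interval from -0.32 to 0.01, and it turned to 0.03 under TMM scaling and 0.02 under median-ratio scaling, which move the median of all genes in this interval from -0.19 to -0.0045 and -0.017.

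In hippocampus Slc6a11 stood at 429.5, 672.3 and 415.9 at P1, 2322, 1933 and 2799 at P7, and 4961, 4313 and 4558 at P14, and the 3 ages do not overlap. It rose in both intervals, by 2.23 (SE 0.19, adjusted p = 7.11e-06) and 0.99 (SE 0.19, adjusted p = 0.00244). In olfactory bulb the values were 520.5, 845.0 and 737.9 at P1, 2014, 2527 and 1658 at P7, and 12173, 13781 and 13148 at P14. Here the later step was the larger, 2.68 (SE 0.19, adjusted p = 3.21e-06) after 1.57 (SE 0.19, adjusted p = 0.000954), and the group mean reached 18.6 times that of P1. As a share of the whole log2 rise from P1 to P14, P7 had reached 110% in cortex, 69.4% in the hippocampus and 36.9% in the bulb. The difference in timing between regions was not tested, since the regions stand in separate tables. Mean astrocyte marker sums in olfactory bulb also rose mostly after P7, being 6114 (P1), 15047 (P7) and 133120 (P14). Hippocampus means by age were 14365, 86486 and 447047. Those of cortex were 25482, 108914 and 517746, still rising where Slc6a11 had no called change. How far a changing astrocyte share enters the rises of Slc6a11, Abat, Aldh5a1 and Maob was not tested.

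**Figure D2:**
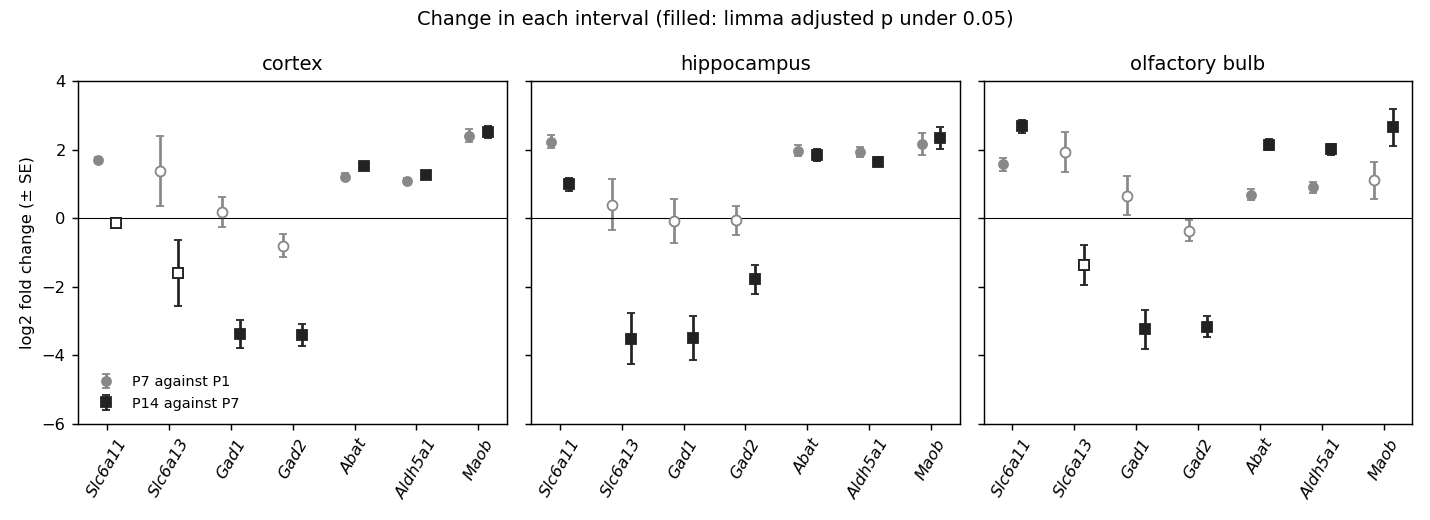
Log2 fold change with its SE for each gene in the 2 intervals and 3 regions; filled symbols passed a limma adjusted p of 0.05. In cortex only the first interval of Slc6a11 is filled, whereas in olfactory bulb all 4 rising genes have the larger change in the second.

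Slc6a13 (chr6:121300227-121337733, plus strand), which encodes another carrier of the same family, was low throughout. In cortex it was at 0, 37.5 and 30.5 at P1, 34.0, 28.6 and 19.5 at P7, and between 5.66 and 15.8 at P14. Replicate 1 of cortex P1 alone held no read, and the other P1 libraries match the P7 ones. With all libraries no interval was called in cortex (P14 against P1: -0.23, SE 0.96, adjusted p = 0.851). Without that replicate the change from P1 to P14 was -1.93 (adjusted p = 0.00208) and the change from P1 to P7 turned from 1.38 to -0.33. In hippocampus it held 24.9, 8.91 and 11.1 at P1, 21.1, 22.5 and 12.3 at P7, then 0, 0 and 3.58 at P14. The fall from P7 to P14 passed the test there (adjusted p = 0.00460), with only 2 reads left in the 3 P14 libraries together, at or under 3 reads each, so no fold is given. In olfactory bulb it was 13.98, 5.28 and 6.07 at P1, 17.8, 46.5 and 40.9 at P7, then 9.94, 6.89 and 23.6 at P14. The P7 libraries are above all P1 ones, but the rise of 1.94 (SE 0.59) missed the threshold with an adjusted p of 0.0598 by limma and passed it with 0.0332 by edgeR.

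Markers of other cell types went with Slc6a13 in some groups and not in others. The summed level of 8 leptomeningeal fibroblast markers was 52.3 in cortex P1 replicate 1, the library without Slc6a13 reads, against 1544 and 1259 in the other P1 libraries. That replicate was also lowest in summed mural markers (76.1 against 313 and 495) and endothelial markers (22.4 against 220 and 369). In olfactory bulb P1 the leptomeningeal sum was 793 in replicate 1, which had the highest Slc6a13 of that group, and 248 and 220 in the others. There replicate 1 had the lowest mural sum (63.8 against 93.3 and 82.7) and the highest endothelial sum (21.5 against 15.9 and 17.1). The P14 libraries did not follow this order. Hippocampus replicate 2 had a sum of 1525 and Slc6a13 at 0, and in olfactory bulb the highest Slc6a13, 23.6, was in replicate 3 with the lowest sum, 604. The hippocampus P28 controls had sums of 10396 and 4416 with Slc6a13 at 4.69 and 0. Those sums were mostly Igf2, with a mean of 7238 beside a mean sum of 7406. At hippocampus P14 Igf2 had a mean of 689 beside a mean sum of 883. Summed choroid plexus markers were also high there, 67795 to 139361 in the P28 controls and 4049 to 8478 at P14. Between P7 and P14, cortex had 0 called falls among its 7 tested leptomeningeal markers, while 31.3% of all genes fell. The hippocampus, where the fall of Slc6a13 was called, had 2 falls and 0 rises among 6 such markers (17.7% of all genes fell). Of the 7 tested for olfactory bulb, 1 went down and 1 went up (26.6% of all genes fell). Leptomeningeal Slc47a1 was at 0 in all hippocampus groups of P1 to P14, and Slc22a6 at hippocampus P14. The gene with the pattern most like Slc6a13 over the 28 developmental libraries was Aldh1a2, a retinoic acid synthesis enzyme known from the meninges, with a root mean square difference of 0.68 in centred log2 values; the next were Anpep at 0.93 and Junb at 0.94. The part of other cells in the Slc6a13 values was not tested.

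In the fit of all ages Gad1 and Gad2 showed no called change up to P7 and fell between P7 and P14 in every region. Fitting only P1 and P7 called Gad1 higher in olfactory bulb (adjusted p = 0.0141) and Gad2 lower in cortex (adjusted p = 0.0317) at P7. Gad1 (chr2:70553072-70602014, plus strand) had 89.5, 53.1 and 44.7 normalized reads at cortex P1, 84.8, 50.3 and 73.0 at P7, then 3.03, 6.92, 11.98 and 3.63 at P14. The P14 libraries are all below the others. The change from P7 to P14 was -3.38 (SE 0.41, adjusted p = 1.92e-05), after 0.18 (SE 0.43, adjusted p = 0.783). In hippocampus Gad1 went from 41.7, 18.3 and 24.6 at P1 and 21.7, 25.7 and 28.4 at P7 to 0, 3.31 and 1.79 at P14, 4 reads in all. The fall after P7 passed the test (adjusted p = 0.00189), and no fold is given because every P14 library was at or under 3 reads. In olfactory bulb Gad1 was more abundant, with 314, 241 and 267 at P1, 533, 355 and 421 at P7, then 11.9, 84.1 and 83.3 at P14. The P7 libraries are above the P1 ones, a difference of 0.66 (SE 0.58) with an adjusted p of 0.579 in the fit of all ages. The later fall was -3.25 (SE 0.58, adjusted p = 0.000928).

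Gad2 (chr2:22622205-22693874, plus strand) was the more abundant decarboxylase at P1 and P7; at P14, replicate 3 of cortex and of olfactory bulb had fewer Gad2 than Gad1 reads. Cortex values were 437, 325 and 210 at P1, 204, 151 and 178 at P7, then 11.3, 14.5, 11.7 and 30.1 at P14. The 3 ages do not overlap, with a change of -0.81 (SE 0.33, adjusted p = 0.0783) in the first interval and -3.42 (SE 0.31, adjusted p = 1.89e-06) in the second. Hippocampus held 131, 86.0 and 75.6 at P1, 103, 58.8 and 122 at P7 and 16.1, 43.0 and 23.3 at P14, a fall of 1.79 on the log2 scale after P7 (SE 0.42, adjusted p = 0.00775). Olfactory bulb started highest, at 1447, 1313 and 1646, stayed at 1108, 839 and 1545 at P7 and ended at 153, 172 and 72.2. The fall after P7 there was -3.18 (SE 0.31, adjusted p = 1.86e-05), and the P14 mean was 9.02% of the P1 mean. Per length, Gad2 exceeded Gad1 in every P1 and P7 library, by 2.34 to 4.69 times at P1 and 1.58 to 3.59 times at P7.

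Most tested markers of the inhibitory neuron lineage fell over the same ages. Summed over 13 genes, among them the Dlx genes, Sp8, Sp9, Lhx6 and Npy, they went from 634 to 1161 per library at cortex P1 to 261 to 553 at P7 and 48.8 to 87.4 at P14. In hippocampus the sums were 293 to 375, 162 to 569 and 53.7 to 99.2, and in olfactory bulb 4171 to 5457, 1939 to 4795 and 604 to 821. Between P7 and P14, 9 of the 10 tested markers fell in cortex, 5 of the 8 tested fell in hippocampus, and the olfactory bulb count was 8 of 9. Of all tested genes 31.3%, 17.7% and 26.6% fell in these regions. At hippocampus P14, Dlx1, Dlx5, Dlx6, Lhx6, Pvalb and Vip were at 0; Sst, Pvalb and Vip were at 0 at olfactory bulb P14. Of these, Pvalb was also at 0 in olfactory bulb and cortex at P1 and P7 and in hippocampus at P1. Lhx6 was at 0 in olfactory bulb at P1 and P7 but not at P14. From P1 to P14 in olfactory bulb, 8 of 9 tested markers fell and 1 rose, beside 31.4% and 24.8% of all genes. The regional order of the Gad2 group means at P1 (olfactory bulb, cortex, hippocampus) was also that of these sums. Among the 3 genes most like Gad2 in pattern were Tro, with a difference of 0.56, and Erbb4, a receptor found on many interneurons, at 0.61. Gad1 was further from Gad2, at 0.92. For Gad1 the nearest were Gprin1 at 0.58, Eml5 at 0.66 and March1 at 0.67. Slc32a1, the vesicular carrier that loads GABA in inhibitory neurons, passed the filter only in olfactory bulb and fell there between P1 and P14 (adjusted p = 1.37e-05); no fold is given because each P14 library was at or under 3 reads. The part of neuronal RNA in the Gad1 and Gad2 values was not tested.

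**Figure D3:**
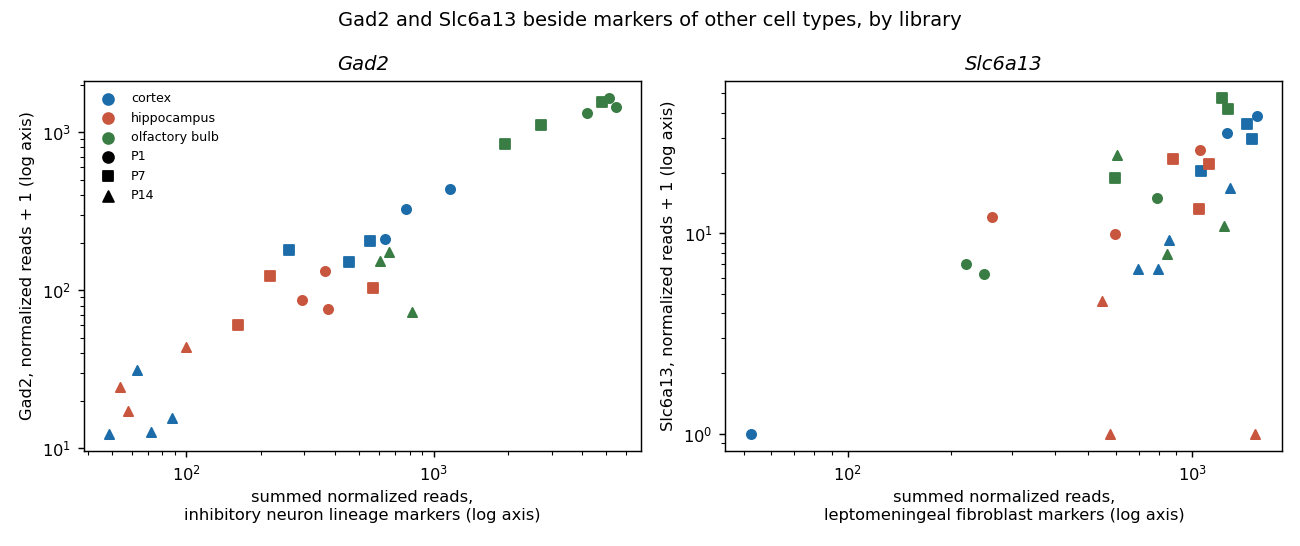
Gad2 against summed inhibitory neuron lineage markers (left) and Slc6a13 against summed leptomeningeal markers (right), each point 1 developmental library, log axes in normalized reads. Gad2 is high in the libraries with high sums, up to 1646 in olfactory bulb P1, and the cortex P1 library with the lowest leptomeningeal sum, 52.3, has no Slc6a13 read.

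Abat and Aldh5a1, the consecutive enzymes of GABA breakdown, rose in both intervals in all 3 regions. Abat (chr16:8513429-8621568, plus strand) went in cortex from 715, 887 and 869 at P1 through 1800, 2088 and 1812 at P7 to 5477, 5432, 5090 and 5565 at P14. The ages do not overlap, and the steps were 1.21 (SE 0.10, adjusted p = 1.05e-06) and 1.51 (SE 0.09, adjusted p = 6.43e-08). In hippocampus it went from 158, 157 and 160 through 645, 495 and 759 to 1943, 2169 and 2712, a rise of 14.4 times between the group means of P1 and P14. In olfactory bulb it held 403, 315 and 267 at P1, 597, 495 and 473 at P7 and 2361, 2334 and 2180 at P14. In this region the first step was the smallest of the 6, 0.68 (SE 0.16, adjusted p = 0.0208); leaving out P1 replicate 2 or 3, or P7 replicate 1 or 2, gave 0.54 to 0.71 with adjusted p from 0.0647 to 0.0975. The second step there was 2.14 (SE 0.16, adjusted p = 4.32e-06).

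Aldh5a1 (chr13:24907579-24937661, minus strand) was at 411, 480 and 417 at cortex P1, 931, 993 and 857 at P7, and 2225, 2190, 2188 and 2259 at P14. Hippocampus values rose from 163, 165 and 148 through 598, 523 and 709 to 1751, 1942 and 2014, and olfactory bulb values from 167, 151 and 129 through 313, 287 and 239 to 1002, 1111 and 1269. No 2 ages overlap in any region. The log2 change over both intervals was 2.35 (SE 0.08, adjusted p = 1.08e-10) for cortex, 3.57 (SE 0.14, adjusted p = 5.68e-09) for hippocampus and 2.91 (SE 0.16, adjusted p = 2.23e-07) for olfactory bulb. Exons of Aldh5a1 share 999 bases with 2 genes on the opposite strand, 4932702P03Rik and 9330162012Rik; whether counting used strand is not given in the sources used here, so reads from those bases cannot be told apart.

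Among 10398 genes that passed the filter in all 3 developmental tables, Abat and Aldh5a1 were each the other's nearest in pattern. Their centred log2 values differed by a root mean square of 0.16 over the 28 libraries, which share their depth and their composition of cells. The next nearest to Abat were Fam213a at 0.25 and Agpat3 at 0.28, and to Aldh5a1 Agpat3 at 0.22 and Lap3 at 0.25. Slc6a11 was 0.63 from Abat and 0.53 from Aldh5a1, and Nr3c1 at 0.29 and Timp3 at 0.30 were among its own 3 nearest genes. The reads of Abat per read of Aldh5a1 stayed between 1.74 and 2.48 in cortex from P1 to P14. The range was 0.947 to 1.35 in hippocampus over the same ages, and 1.72 to 2.41 in olfactory bulb.

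Between P7 and P14, breakdown against uptake moved in different directions by region. In cortex there were 0.503 to 0.596 Abat reads per Slc6a11 read at P1, 0.369 to 0.425 at P7 and 1.24 to 1.32 at P14. In hippocampus the ratio was 0.233 to 0.386 at P1, 0.256 to 0.278 at P7 and 0.392 to 0.595 at P14. In olfactory bulb it was 0.362 to 0.773 at P1, 0.196 to 0.296 at P7 and 0.166 to 0.194 at P14. The P7 and P14 ranges do not overlap in any region, and P14 is higher in cortex and hippocampus but lower in olfactory bulb. From P1 to P7 the mean ratio was lower in all 3 regions. The ratios were chosen after their values were seen and were not tested.

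**Figure D4:**
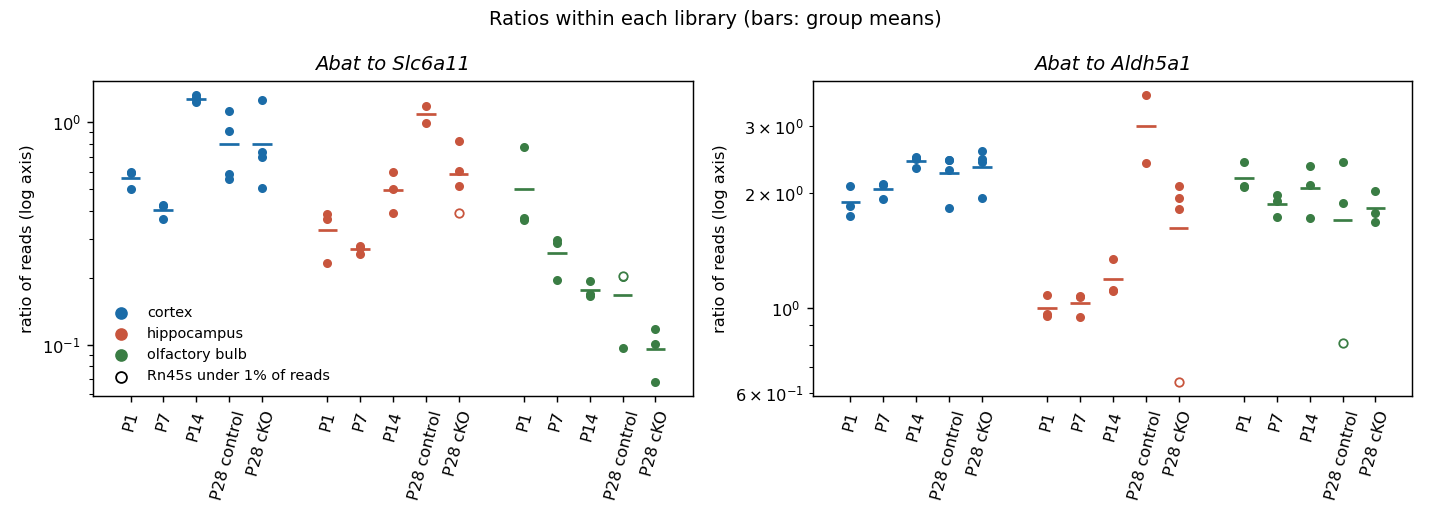
Reads of Abat per read of Slc6a11 (left) and of Aldh5a1 (right) in each library (log axes); bars are group means and open circles the 2 libraries with Rn45s under 1% of reads. The left ratio is above 1 in all cortex P14 libraries and below 0.2 in all olfactory bulb P14 libraries. On the right both open circles lie below 1, as do hippocampus P1 replicates 1 and 2 (0.965 and 0.951) and P7 replicate 2 (0.947).

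Maob (chrX:16709282-16817366, minus strand) had the largest fold rise of the 7 genes in cortex and hippocampus. Cortex values were 14.5, 11.6 and 17.7 at P1, 79.0, 85.1 and 77.0 at P7, and 506, 566, 408 and 395 at P14, so that the P14 mean was 32.1 times that of P1. The steps were 2.40 (SE 0.19, adjusted p = 7.49e-07) and 2.51 (SE 0.18, adjusted p = 2.25e-07). Hippocampus values were 17.5, 15.2 and 9.83, then 56.8, 52.6 and 91.8, then 322, 418 and 274, with steps of 2.16 (SE 0.33, adjusted p = 0.000767) and 2.34 (SE 0.33, adjusted p = 0.000409). Olfactory bulb was lower, at 6.09, 3.52 and 8.27, then 17.2, 12.9 and 10.7, then 131, 141 and 37.5. There the first step of 1.10 (SE 0.54) missed the threshold with an adjusted p of 0.252 on at most 28 reads per library, and the second was 2.64 (SE 0.54, adjusted p = 0.00230). Maob is X-linked and the cortex libraries differed in sex genes with age: all P1 and P7 libraries held Xist and at most 0.577 of the Y-linked Ddx3y, whereas P14 replicates 3 and 4 held 326 and 340 of Ddx3y. At cortex P14 Maob was higher in the replicates with Xist (506 and 566 against 408 and 395). At olfactory bulb P14 and hippocampus P14 the replicate with Xist had the lowest value, 37.5 and 274. The part of sex in these values was not tested.

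Maoa, the neighbouring and related monoamine oxidase gene, rose less than Maob in cortex, by 0.60 between P1 and P14 (log2, SE 0.12, adjusted p = 0.000806). Reads of Maob per read of Maoa were 0.0562 to 0.0869 at cortex P1 and 1.30 to 2.05 at P14. In olfactory bulb they were 0.0404 to 0.0993 at P1 and 0.0894 to 0.443 at P14. The genes nearest to Maob in pattern were Hlf at 0.52, Mfap3l at 0.52 and Cyp2d22 at 0.56.

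The order of levels per exon length, in recovered reads per kilobase scaled as the deposited values, changed with age. At olfactory bulb P1 Gad2 came first at 256 ± 29.2 (SD, n = 3), followed by Slc6a11 at 170 ± 40.0, Gad1 at 62.8 ± 8.50 and Abat at 61.9 ± 12.9, the last 2 within their spread, then Aldh5a1 at 26.4 ± 3.38, and Slc6a13 at 3.78 ± 2.15 and Maob at 2.47 ± 0.986, again within their spread. At olfactory bulb P14 Slc6a11 led with 3154 ± 196, ahead of Abat at 432 ± 18.4, Aldh5a1 at 200 ± 23.8, Maob at 42.8 ± 23.6, Gad2 at 23.1 ± 9.25, Gad1 at 13.7 ± 9.49 and Slc6a13 at 6.03 ± 3.98, where the libraries of neighbouring genes overlapped from Maob downwards but those of Gad2 and Slc6a13 did not. At cortex P14 Slc6a11 (1021 ± 54.3, n = 4) and Abat (1016 ± 39.2) did not differ beyond their spread, whereas at P7 Slc6a11 (1138 ± 81.8, n = 3) stood above Abat (358 ± 30.7). At hippocampus P14 the order was Slc6a11 at 1116 ± 79.2 (n = 3), Abat at 429 ± 74.5, Aldh5a1 at 337 ± 24.04 and Maob at 140 ± 30.3, with Gad2, Slc6a13 and Gad1 below 5.

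Of 16 other genes of GABA supply, transport and release, 13 were tested in cortex and hippocampus and 14 in olfactory bulb. From P1 to P14, 10 rose and 3 fell in cortex, hippocampus had 9 rises and 3 falls, and olfactory bulb 9 and 4. Of all tested genes 24%, 21% and 24.8% rose and 40.3%, 28.5% and 31.4% fell. Among the genes that rose in all 3 regions were the glutamine and glutamate enzymes Glul and Glud1, the glutamine carrier Slc38a3, and Sat1, Maoa, Aldh9a1 and Aldh1a1 of the polyamine route, with the mitochondrial hydroxyacid oxidoreductase Adhfe1. Slc38a1, a glutamine carrier, and Odc1, which makes putrescine, were among those that fell in all 3. Slc38a1 went down by 2.52, 3.23 and 3.33 on the log2 scale in cortex, hippocampus and olfactory bulb. Aldh1a1 showed the widest regional range, with means at P14 of 1362 (cortex), 647 (hippocampus) and 24.03 (olfactory bulb). The median log2 change of the tested genes of this list was 0.89, 1.93 and 2.43, and that of all tested genes was -0.27, -0.29 and -0.24.

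At P28 the libraries labelled control and cKO were compared to ask whether loss of the GABA-B receptor in astrocytes went with a change in these genes. Gabbr1 was lower in the cKO libraries of every region, at 89.8 to 211 against 927 to 1930 in cortex, 152 to 380 against 780 and 824 in hippocampus, and 63.6 to 99.5 against 184 to 318 in olfactory bulb. None of the 7 genes was called. The filter passed 4 of 7 in cortex (not Slc6a13, Gad1 and Gad2), 5 in hippocampus (not Slc6a13 and Gad2) and all in olfactory bulb. By limma 0 of 4, 0 of 5 and 0 of 7 had an adjusted p under 0.05, beside 0.00982% (1 gene, Gabbr1), 0% and 0% of all tested genes; edgeR called the same number of all genes in each region. At an unadjusted p under 0.05 the count of these genes was again 0 in each region, by limma and by edgeR, beside 2.17%, 2.54% and 3.02% of all genes by limma. Ranges of control and cKO did not overlap for 0 of 4 genes in cortex (1.89% of all genes), 1 of 5 in hippocampus (15% of all genes) and 1 of 7 in olfactory bulb (10% of all genes).

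In cortex Slc6a11 was 2675, 3213, 2606 and 2341 in control and 2540, 2862, 3353 and 2218 in cKO libraries. The groups overlap, and the difference of 0.01 (SE 0.18) has a 95% interval from -0.38 to 0.40 on the log2 scale. Abat was 3012, 2944, 1526 and 1307 in control and 3215, 2114, 2352 and 1124 in cKO. Its spread follows the 2 styles in which the libraries are labelled: those with the plain labels lie between 2114 and 3215, those that name tamoxifen between 1124 and 1526. The plain style covers 3 cKO and 2 control libraries, and the other style only 1 cKO and 2 control libraries. In that order, cKO minus control within the styles was -0.24 and -0.33 for Abat and -0.26 and -0.25 for Aldh5a1. It was -0.50 and -0.26 for Maob and -0.02 and -0.15 for Slc6a11. With the label style as a covariate the Abat difference was -0.27 (adjusted p = 0.779), against 0.01 (SE 0.32, 95% interval -0.68 to 0.69) without it. Slc6a13, Gad1 and Gad2, under the filter in this table, did not exceed 23.6 in any library.

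In hippocampus Abat was lower in all 4 cKO libraries, at 1976, 1449, 1709 and 1023, than in the controls, at 2111 and 2214. The difference of -0.53 (SE 0.31, 95% interval -1.23 to 0.17) had an adjusted p of 0.936, and was -0.52 without cKO replicate 2. Slc6a11 was 1789 and 2230 in control and 2408, 3715, 2813 and 1972 in cKO, with a difference of 0.41 (SE 0.32, interval -0.30 to 1.12) that was 0.25 without that replicate. Aldh5a1 was 586 and 925 in control and 1088, 2266, 882 and 490 in cKO; its difference of 0.46 (SE 0.52) was 0.08 without replicate 2, which holds the highest value. Maob was 680 and 624 in control and 450, 829.1, 735 and 533 in cKO, a difference of -0.07 (interval -0.77 to 0.62). Gad1, with a mean of 10.1 just above the filter, ranged from 13.3 to 15.1 in control and from 0 to 26.1 in cKO. Its difference of -1.71 was not called, and leaving out 1 library gave -2.56 to -0.97. Summed choroid plexus markers, mostly Ttr, ranged from 11245 to 139361 in these libraries and their part in these values was not tested.

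In olfactory bulb Slc6a11 was higher in all 3 cKO libraries, at 15091, 15276 and 19977, than in the controls, at 14271, 9704 and 13218. The difference of 0.44 (SE 0.24, interval -0.10 to 0.99) had an adjusted p of 0.877 and was 0.28 without control replicate 2. Abat was 2891, 1981 and 1286 in control and 1788, 1540 and 1360 in cKO, a difference of -0.33 (SE 0.29). Control replicate 2, with almost no Rn45s reads, held 2455 of Aldh5a1 against 1198 and 683 in the other controls, 426 of Maob against 147 and 131, and 652 of Gad2 against 170 and 167. Without it the Aldh5a1 difference moved from -0.57 to -0.09, that of Maob from -0.64 to -0.10 and that of Gad2 from -0.28 to 0.37, and 0 of 7 genes were called. Its summed inhibitory neuron lineage markers were also the highest, 1210 against 486 and 721. Gad1 ranged from 86.1 to 177 in control and 73.9 to 221 in cKO, and Slc6a13 from 3.40 to 35.0 and 11.9 to 28.3.

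**Figure D5:**
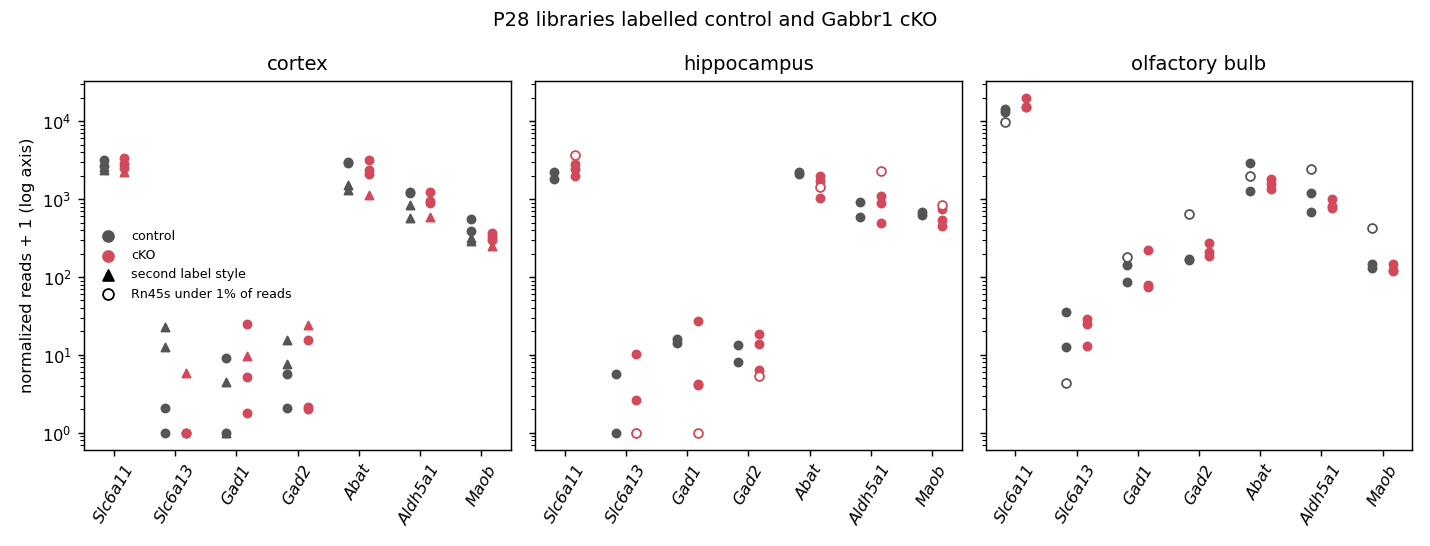
Normalized reads plus 1 (log axis) of the 7 genes in P28 control and cKO libraries by region; triangles are cortex libraries of the second label style and open circles the 2 libraries with Rn45s under 1% of reads. Control and cKO points overlap except for Abat in hippocampus, lower in cKO, and Slc6a11 in olfactory bulb, higher in cKO. Neither was called, and 15% of all tested genes in hippocampus and 10% in olfactory bulb did not overlap.

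In both libraries with little Rn45s the pair of breakdown enzymes was out of step. Reads of Abat per read of Aldh5a1 were 0.639 in hippocampus P28 cKO replicate 2, against 1.82 to 2.09 in the other cKO libraries, and 0.807 in olfactory bulb P28 control replicate 2, against 2.41 and 1.88 in the other controls. Reads of Maob per read of Maoa were 5.17 and 6.41 there, the highest of all 48 libraries. Both ratios were looked at after their values were seen.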

How the data were processed

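RNA-seq was measured in 48 libraries of mouse astrocytes. Per the labels' protocols, the input was at most about a nanogram of total RNA and the kit was Trio RNA-seq. The submitters' processing notes list STAR 2.5.0a, DESeq2 1.20.0, FastQC, MultiQC and build mm10, with no role or order; the counting program, annotation and strand setting are not given in the sources used here. The deposited values are a normalized signal per gene, scaled by the authors, in 6 tables of 24421 symbols, one for each region's developmental ages and one for its P28 groups. In each library 100% of the values were whole multiples (within 0.05 reads) of 1 step, which gives back whole gene reads; in replicate 2 of the olfactory bulb cKO group the step is too near 1 for this to be a check. A set of 27 symbols turned into dates was restored from the table that keeps them.

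Genes with a table mean of at least 10 were tested within each table on log2(value + 1) with limma 3.58.1 (trend, R 4.3.3), with Benjamini-Hochberg adjustment over all tested genes and calls at an adjusted p under 0.05. Because 1 was added before taking log2, fold changes of genes with few reads come out too small. One alternative was the quasi-likelihood test of edgeR 4.0.16 on the recovered reads; the others were pseudocounts of 0.5 and 8, no filter, TMM and median-ratio scaling, fits of only the ages compared, the label style as a covariate and leaving out each library. The procedure was tested on simulated data. Replicate numbers follow accession order and pair nothing.

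Named genes are the 7 members, a list of 16 other GABA pathway genes, Gabbr1, members of the cell type marker lists, and for each member the 3 genes with the smallest root mean square difference in log2 values, each centred on its table's mean, over the 28 developmental libraries. Predicted genes, Rik clones and pseudogenes were left out of these neighbours. A few genes covered by this rule are not reported here. The members, the lists and the tests were chosen with earlier results of these data known. Levels per length divide by the union of exons in GENCODE annotation of GRCm38, and coordinates are of that build. Read depth limits the low genes: a value from 3 or fewer reads per library gets no fold.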

Additional observations from a re-analysis of the deposited data

Results flagged for a closer look

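In groups of 4 libraries, a library was marked where its gap to the nearest other exceeded the 95% limit of Dixon's test; 28 groups of values were checked, and chance marks about 1 in 20. Slc6a13 in cortex P28 cKO replicate 4 was 4.80, with the other cKO libraries at 0. With those at 0 any value above 0 is marked, and this one was 5 reads of a gene under the filter. Gad1 in hippocampus P28 cKO replicate 1 was 26.1, with the next library at 3.19. Gad2 in cortex P14 replicate 4 was 30.1, with the next at 14.5.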

How the results depend on the processing

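Of 79 results for single genes, 48 were called. Under their 635 alternative values 0 changed direction and 4 lost the call, all for Abat in olfactory bulb between P1 and P7 with 1 library left out. Fitting only the ages compared raised the number of the 7 genes called in olfactory bulb between P1 and P7 from 3 to 6 (Slc6a13, Gad1 and Maob were gained, with adjusted p = 0.00786, 0.0141 and 0.0428), and that of all 11490 genes from 1214 to 3565. Among the 31 uncalled results, 13 changed direction somewhere and 8 passed the threshold somewhere. Slc6a11 in cortex between P7 and P14 turned to 0.035 with TMM and 0.021 with median-ratio scaling, and Slc6a13 in cortex between P1 and P14 to 0.035 with a pseudocount of 0.5. With the label style as a covariate the cortex P28 differences of Slc6a11 and Abat became -0.066 and -0.27. The cause was not tested.

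Leaving out 1 library gave, for Slc6a13 in cortex, -0.33 to 2.30 between P1 and P7 and -1.93 to 0.70 between P1 and P14. Between P1 and P7 the range was -0.025 to 0.47 for Gad1 in cortex, and -0.34 to 0.23 for Gad1 and -0.28 to 0.24 for Gad2 in hippocampus. At P28 it was -0.091 to 0.11 for Slc6a11, -0.21 to 0.30 for Abat and -0.28 to 0.15 for Aldh5a1 in cortex, -0.22 to 0.078 for Maob in hippocampus, and -0.0018 to 1.51 for Slc6a13, -0.76 to 0.023 for Gad1 and -0.61 to 0.37 for Gad2 in olfactory bulb. No paired analysis was possible because the labels give no replicate numbers.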
